A study of Mus musculus with 12 samples.

Results

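The interferon response genes described here are Irf7, Isg15, Usp18, Oas1a, Oasl2, Ifit1, Ifit2, Ifit3 and Rsad2, 9 of the 19012 gene symbols in the expression tables. They were chosen by name as genes that cells switch on after sensing an interferon, with earlier results of these data known. Their poly(A) RNA was measured by sequencing in 12 libraries of mouse small intestine. The groups are organoids (small cultured epithelial structures grown from isolated crypts, 12 weeks in culture), freshly isolated villi (the finger-like projections that carry mature absorptive cells), and freshly isolated crypts (the pits at their base that hold stem and Paneth cells), each from duodenum, jejunum and ileum. Organoids and villi have 1 library per origin and crypts have 2, numbered 1 and 2 in the labels. No strain, genotype, sex, age or treatment is given for any group in the labels, and nothing says that the libraries come from separate animals, so p-values measure only the spread between these libraries. The series title frames the study as a question of whether adult intestinal stem cells keep a programme of their location.

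Interferons are secreted proteins that bind receptors on neighbouring cells. The receptors act through the kinases JAK1 and TYK2 and a complex of transcription factors that includes STAT2 and IRF9, which enters the nucleus and binds a short DNA element, the interferon-stimulated response element, near the start of their target genes. In the gut epithelium the type III interferons (interferon lambda) are known to act on epithelial cells and the type I interferons mostly on the cells beneath them, while interferon gamma comes from T and natural killer cells and acts through a separate receptor.

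The 9 genes have different tasks. IRF7 is the transcription factor that amplifies the response. ISG15 is a small ubiquitin-like protein attached to other proteins, and USP18 removes it and also dampens signalling at the type I receptor. OAS1A belongs to the family that senses double-stranded RNA and makes the messenger 2-5A, and OASL2 is a relative of that family. IFIT1, IFIT2 and IFIT3 are RNA-binding or scaffold proteins that restrain viral RNA, and RSAD2 (viperin) is an antiviral radical-SAM enzyme. In the files' mm9 coordinates the 3 Ifit genes lie together on the plus strand of chromosome 19, Ifit2 at chr19:34625183-34651023, Ifit3 at chr19:34658018-34663471 and Ifit1 at chr19:34715378-34724498. Irf7 lies at chr7:148449087-148452299 (minus strand), Isg15 at chr4:155573563-155574904 (minus), Usp18 at chr6:121195974-121220934 (plus), Oas1a at chr5:121346265-121357515 (minus), Oasl2 at chr5:115346942-115362253 (plus) and Rsad2 at chr12:27127617-27141295 (minus). No source used here says whether the files count bases from 0 or 1. Reads that Oas1a shares with Oas1g, and Ifit3 with Ifit3b, cannot be assigned with certainty between these close copies.

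The core of the response element was searched as GAAANNGAAA on both strands in the 250 bases before each annotated start (RefSeq, build GRCm38.p6, which is not the build of the files). It was found in 5 of the 8 genes that have an entry, against 936 of 27025 genes (3.46%) and 978 of 32851 windows (2.98%) overall. Usp18 has no entry. Below are the 200 bases before the start of the 5 genes that hold a match and of Irf7 and Oasl2, which showed some of the largest tissue differences and hold none. Each reads 5′ to 3′ on the gene's strand and the capitals mark the matches.

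Isg15, chr4:156200819-156201018, minus strand: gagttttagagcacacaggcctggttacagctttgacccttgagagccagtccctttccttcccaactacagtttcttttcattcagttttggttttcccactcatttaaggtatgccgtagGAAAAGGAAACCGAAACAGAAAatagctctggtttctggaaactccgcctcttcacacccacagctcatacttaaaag
Oas1a, chr5:120907526-120907725, minus strand: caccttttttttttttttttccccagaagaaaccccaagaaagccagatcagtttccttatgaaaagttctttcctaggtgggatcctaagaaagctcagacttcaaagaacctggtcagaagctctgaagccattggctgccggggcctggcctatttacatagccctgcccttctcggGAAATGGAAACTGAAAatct
Ifit1, chr19:34640689-34640888, plus strand: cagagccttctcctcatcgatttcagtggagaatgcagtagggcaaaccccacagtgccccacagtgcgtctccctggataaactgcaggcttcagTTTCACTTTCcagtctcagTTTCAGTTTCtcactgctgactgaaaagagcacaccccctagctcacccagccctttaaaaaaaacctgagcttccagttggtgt
Ifit3, chr19:34583329-34583528, plus strand: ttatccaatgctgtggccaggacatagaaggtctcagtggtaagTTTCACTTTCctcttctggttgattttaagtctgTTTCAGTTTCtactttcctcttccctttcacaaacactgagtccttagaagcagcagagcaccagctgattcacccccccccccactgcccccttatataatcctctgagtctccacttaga
Rsad2, chr12:26456453-26456652, minus strand: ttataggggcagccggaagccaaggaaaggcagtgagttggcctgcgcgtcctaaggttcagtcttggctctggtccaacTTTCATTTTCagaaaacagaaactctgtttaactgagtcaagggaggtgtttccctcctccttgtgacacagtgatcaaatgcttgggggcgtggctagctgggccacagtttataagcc
Irf7, chr7:141266425-141266624, minus strand: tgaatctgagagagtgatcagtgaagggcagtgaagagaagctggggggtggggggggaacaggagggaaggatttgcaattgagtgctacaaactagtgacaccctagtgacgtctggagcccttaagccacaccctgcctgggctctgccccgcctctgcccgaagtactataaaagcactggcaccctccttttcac
Oasl2, chr5:114896734-114896933, plus strand: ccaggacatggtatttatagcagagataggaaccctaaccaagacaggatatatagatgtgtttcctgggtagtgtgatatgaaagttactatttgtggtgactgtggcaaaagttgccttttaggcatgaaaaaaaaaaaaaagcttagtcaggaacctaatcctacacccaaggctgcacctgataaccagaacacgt

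Isg15 holds 3 matches that overlap one another, Oas1a has 2 overlapping ones, Ifit1 and Ifit3 have 2 separate ones each on the other strand, and Rsad2 has 1 on the other strand. Ifit2, with 2 annotated windows, also had no match. These matches describe letters in a window, and their absence elsewhere says nothing of a factor's binding.

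Levels are in RPKM, read numbers scaled by exon length and by the depth of the library, so those of different genes can be set side by side. The depths recovered from the RPKM values lie between 5268480 and 18591819 reads a library. Of these reads 44.28 to 75.84% fall in annotated genes, counted here and below over the longest transcript of each symbol only. The 3 crypt libraries numbered 2 stood apart from those numbered 1. Their summed RPKM of 7 enterocyte markers (Alpi, Apoa4, Apoa1, Fabp1, Lct, Sis, Anpep) was 6031, 17591 and 8434 in duodenum, jejunum and ileum, against 503, 1336 and 593 in replicate 1, while organoids had 2307 to 4150 and villi 36777 to 94789. Paneth markers went the other way, at 2112, 11189 and 20819 in replicate 2 against 8446, 24068 and 68715 in replicate 1. Tissue comparisons are therefore also given with either crypt replicate alone. Markers of the epithelium were present in every library, at 2645 to 4076 summed RPKM in organoids, 3606 to 6595 in villi and 2550 to 7520 in crypts.

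The 9 genes were, with 1 exception, higher in villi than in crypts or organoids. In the limma fit over all 12 libraries 8 of the 9 were higher in villi than in crypts and none was lower, at an adjusted p under 0.05. Among all 11690 genes tested, 53.4% passed in either direction, 20.5% of all genes being higher and 32.8% lower. For the same 8 genes all 3 villus libraries lay above all 6 crypt libraries, which held for 16.7% of all genes. The exception was Ifit2. The median log2 difference of the 9 genes was 1.71, against -0.20 over all genes tested.

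Irf7 was the most abundant of the 9 in every tissue mean. It had 145, 112 and 141 RPKM in duodenal, jejunal and ileal villi. In crypts it had 15.9, 23.6 and 31.9 RPKM in replicate 2 of the same origins and 5.60, 10.3 and 10.4 RPKM in replicate 1. The villi thus stood clear of both crypt replicates, and each crypt library numbered 2 stood above its partner. The difference was 3.15 ± 0.40 on the log2(RPKM + 1) scale (SE, limma adjusted p = 4.5e-05).

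Isg15 showed the largest difference on the log2(RPKM + 1) scale, while Ifit1 had the largest ratio of tissue means, 21.4. Villi had 125 RPKM in duodenum, 43.2 in jejunum and 35.3 in ileum, against 5.73, 8.15 and 5.54 RPKM in crypt replicate 2 and 2.16, 2.61 and 1.75 RPKM in crypt replicate 1. In the villi its level was highest in the duodenum, and every crypt library numbered 2 stood above its partner. The log2 difference was 3.60 ± 0.43 (SE, limma adjusted p = 2.6e-05), and its ratio of tissue means was 15.7. Usp18, which removes ISG15 from proteins, was much less abundant. It had 9.50, 3.36 and 1.63 RPKM in the villi in the same order of origins, and between 0.133 and 1.01 RPKM in crypts, with a median of 0.530 and as few as 2 reads in a library. Usp18 was 1.71 ± 0.32 higher in villi (log2 difference and SE, limma adjusted p = 0.00074).

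Of the OAS family members among the 9 genes, Oasl2 was the more abundant in villi. Oasl1, which is not among the 9, averaged 65.8 RPKM in villi, against 30.2 for Oasl2. Oasl2 had 37.0, 26.7 and 26.8 RPKM in duodenal, jejunal and ileal villi, and 2.32 to 8.24 RPKM in crypts, with a median of 4.38. Its villi and crypts were separated by more than the whole range of the crypts. Oas1a had 10.7, 6.31 and 11.1 RPKM in the villi and 1.33 to 5.73 RPKM in crypts, with a median of 2.42. The jejunal villi lay just above the highest crypt library, the duodenal replicate 2. The log2 differences were 2.53 ± 0.32 for Oasl2 and 1.38 ± 0.29 for Oas1a (SE, limma adjusted p = 4.1e-05 and 0.0015).

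The Ifit genes did not move as a group. Ifit1 had 21.3, 10.9 and 7.88 RPKM in duodenal, jejunal and ileal villi. In crypts it had 0.885, 1.93 and 0.553 RPKM in replicate 2 and 0.0720, 0.174 and 0.127 RPKM in replicate 1, the last 3 resting on 1 to 4 reads. It was close to absent from crypt replicate 1 and its log2 difference was 3.13 ± 0.32 (SE, limma adjusted p = 1.0e-05). Ifit3, its neighbour on chromosome 19, had 2.45, 2.11 and 1.16 RPKM in the villi and 0.224 to 1.08 RPKM in crypts, with a median of 0.471, and rose by 0.89 ± 0.18 (log2, SE, limma adjusted p = 0.0012). Its ileal villi lay only just above the jejunal crypts of replicate 2. Ifit2 had 0.232, 0.257 and 0.209 RPKM in the villi, against 0.0283 to 0.215 RPKM in crypts, with a median of 0.141. These values rest on 10 to 13 reads in villi and 1 to 8 in crypts, and the groups overlap. Its log2 difference of 0.12 ± 0.10 did not pass (SE, limma adjusted p = 0.33), and a pseudocount of 1 holds down any difference at this level.

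Rsad2 had 3.52, 1.44 and 1.74 RPKM in duodenal, jejunal and ileal villi. In crypts it had 0.283, 0.374 and 0.518 RPKM in replicate 2 and 0, 0.153 and 0.179 RPKM in replicate 1, where the 0 in the duodenum allows up to 0.152 RPKM (3 reads, counting error only). All villi stood above all crypts, and the log2 difference was 1.33 ± 0.19 (SE, limma adjusted p = 9.3e-05).

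**Figure D1:**
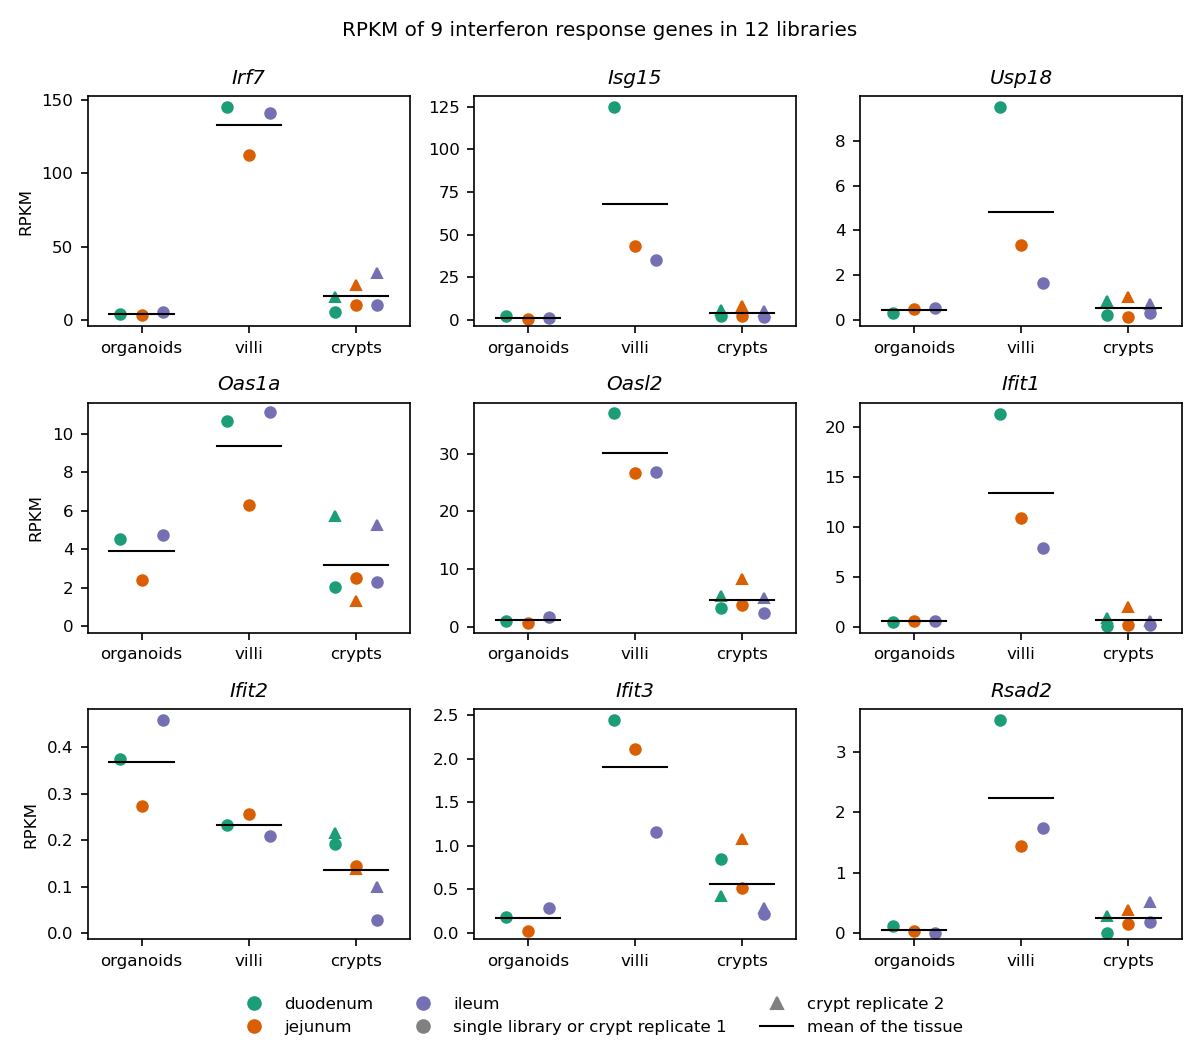
RPKM (linear axis from 0, a separate scale for each gene) of the 9 interferon response genes in organoids, villi and crypts. Each point is a library, coloured by origin, triangles are crypt replicate 2 and lines are tissue means. For every gene but Ifit2 the 3 villus points lie above all other points, Irf7 between 112 and 145 RPKM in villi against at most 31.9 in crypts.

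Leaving out either crypt replicate kept the same 8 calls. Against crypt replicate 1 alone Irf7 was 3.81 higher in villi and against replicate 2 alone 2.48 higher (log2), and Isg15 was 4.22 and 2.99 higher. The median of all genes tested was -0.20 as deposited, -0.43 (a shift of -0.23) when scaled to the reads in annotated genes, and -0.02 (a shift of 0.18) with a trimmed mean of M-values. Higher calls made up 38.5%, 26.4% and 51.7% of all calls in these 3 scalings. Relative to those medians Isg15 was 3.80, 3.71 and 3.92 higher and Ifit2 0.32, 0.49 and 0.20 higher.

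Markers of cells other than epithelium also differed between these tissues. All 10 T and natural killer cell markers were detected in every villus library, at 464, 185 and 88.4 summed RPKM in duodenum, jejunum and ileum. In crypts their sum was 1.52 to 8.42 RPKM, with 2 to 6 of the 10 at 0 and Cd8b1 and Cd2 at 0 in all 6 libraries. The general leukocyte markers Ptprc, Laptm5, Coro1a and Cd52 summed to 32.5 to 52.0 RPKM in villi and 0.491 to 4.52 in crypts, and 7 stroma and vessel markers to 15.4 to 43.7 RPKM in villi and 0.107 to 2.35 in crypts, with 2 to 6 at 0. The 5 B and plasma cell markers summed to 8.69 to 36.3 RPKM in villi, with none at 0, and 1.68 to 5.18 in crypts, with up to 3 at 0. Of these, only Cd79b and Igj, the joining chain of secreted antibodies, held enough reads for the 12-library fit. In crypts only Cd79b did, so no test of this list is read here. The summed macrophage and dendritic cell markers overlapped, at 29.6 to 45.9 RPKM in villi and 13.0 to 79.2 in crypts. Of these 8 markers, 2 to 4 were at 0 in each crypt library and none in any villus library. Only Cd68 and Lyzs (now Lyz2) held enough reads to be tested in crypts. The 3 markers of plasmacytoid dendritic cells, known as strong makers of type I interferon, also overlapped, at 8.21 to 18.8 RPKM in villi and 5.61 to 13.5 in crypts, with Siglech at 0 in all 6 crypt libraries. Of these 3, Bst2 is itself an interferon-stimulated gene. The part of these cells in the higher levels of the 9 genes was not tested. In bulk samples like these a different number of cells of a type and a different amount of RNA per cell cannot be told apart.

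Organoids gave a mixed picture. Compared with crypts, 3 of the 9 were lower (Irf7, Oasl2 and Isg15) and 1 was higher (Ifit2) in the same limma fit. Over all genes 47.7% passed, 24.2% lower and 23.4% higher, so these counts lie near the share of all genes and are not a result about the set. Irf7 had 3.94, 3.41 and 5.35 RPKM in duodenal, jejunal and ileal organoids, and its lowest crypt value was 5.60. Oasl2 had 1.001, 0.583 and 1.62 RPKM in organoids, below the crypt minimum of 2.32. These 2 genes were the members with every organoid below every crypt library, which held for 22.0% of all genes. Irf7 fell by 1.54 ± 0.40 and Oasl2 by 1.40 ± 0.32 (log2, SE, limma adjusted p = 0.0070 and 0.0031). Both calls held in all alternatives run, with the smallest changes against crypt replicate 1 alone, where Irf7 fell by 0.87 and Oasl2 fell by 0.997. Higher calls made up 49.2% of all calls as deposited, 36.9% when scaled to the reads in annotated genes (a shift of -0.17 in the median of all genes) and 50.9% with a trimmed mean of M-values. Relative to the median of all genes the difference of Irf7 was -1.55, -1.63 and -1.53 in these scalings.

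Isg15 had 2.23, 0.689 and 0.929 RPKM in duodenal, jejunal and ileal organoids, so the duodenal organoids lay inside the range of crypt replicate 1. It fell by 1.14 ± 0.43 against all crypts (log2, SE, limma adjusted p = 0.042). Against crypt replicate 1 alone the difference was -0.52 and did not pass (limma adjusted p = 0.17). The call was also lost without any 1 of the 3 organoid libraries, the 3 crypt libraries numbered 2, or the jejunal or ileal villi, with adjusted p between 0.050 and 0.19 in those limma fits. Ifit2 had 0.374, 0.272 and 0.459 RPKM in the organoids, on 16 to 25 reads, all above its crypt maximum of 0.215. It met the filter for testing only with the organoid libraries counted, where it was high, and did not meet it in crypts. No support is therefore drawn from its call. Its rise of 0.27 ± 0.10 (log2, SE, limma adjusted p = 0.041) was lost without 8 of the 12 libraries taken in turn (adjusted p 0.051 to 0.24) and against either crypt replicate alone (limma adjusted p = 0.084 and 0.12).

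The other 5 genes did not pass. Ifit1 had 0.490, 0.571 and 0.550 RPKM in duodenal, jejunal and ileal organoids, between its levels in the paired crypt replicates at each origin. Usp18 had 0.322, 0.5003 and 0.548 RPKM, likewise between the crypt replicates at each origin. Oas1a had 4.54, 2.42 and 4.73 RPKM in the organoids, inside its crypt range of 1.33 to 5.73. Ifit3 had 0.185, 0.0269 and 0.291 RPKM on 1 to 8 reads, and Rsad2 had 0.123, 0.0287 and 0 RPKM on 0 to 5 reads, the 0 allowing up to 0.0580 RPKM. Both were low in organoids, at 0.30 and 0.20 of the mean of the crypts, but their log2 differences of -0.40 and -0.24 missed the threshold on this scale (limma adjusted p = 0.079 and 0.30). T and natural killer cell markers summed to 3.59, 1.13 and 0.212 RPKM in organoids, with 7 to 9 of the 10 at 0.

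Organoids and villi lay furthest apart. In this comparison 8 of the 9 were lower in organoids and none was higher, against 62.0% of all genes called, 25.8% lower and 36.2% higher. For the same 8, every organoid library lay below every villus library (29.5% of all genes). Isg15 fell by 4.74 ± 0.49, Irf7 fell by 4.69 ± 0.46 and Oasl2 fell by 3.93 ± 0.37 on the log2 scale (SE, limma adjusted p = 6.8e-06, 5.2e-06 and 3.9e-06). Oas1a had the smallest difference that passed, -1.08 ± 0.33 (limma adjusted p = 0.012). The log2 difference of Ifit2, 0.15 ± 0.12, did not pass (SE, limma adjusted p = 0.28). With a trimmed mean of M-values the median of all genes was 0.03, a shift of -0.19 from 0.22 as deposited, and relative to these medians Isg15 was at -5.03 and -4.96. The 3 tissue comparisons share their libraries, so they are not separate evidence.

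**Figure D2:**
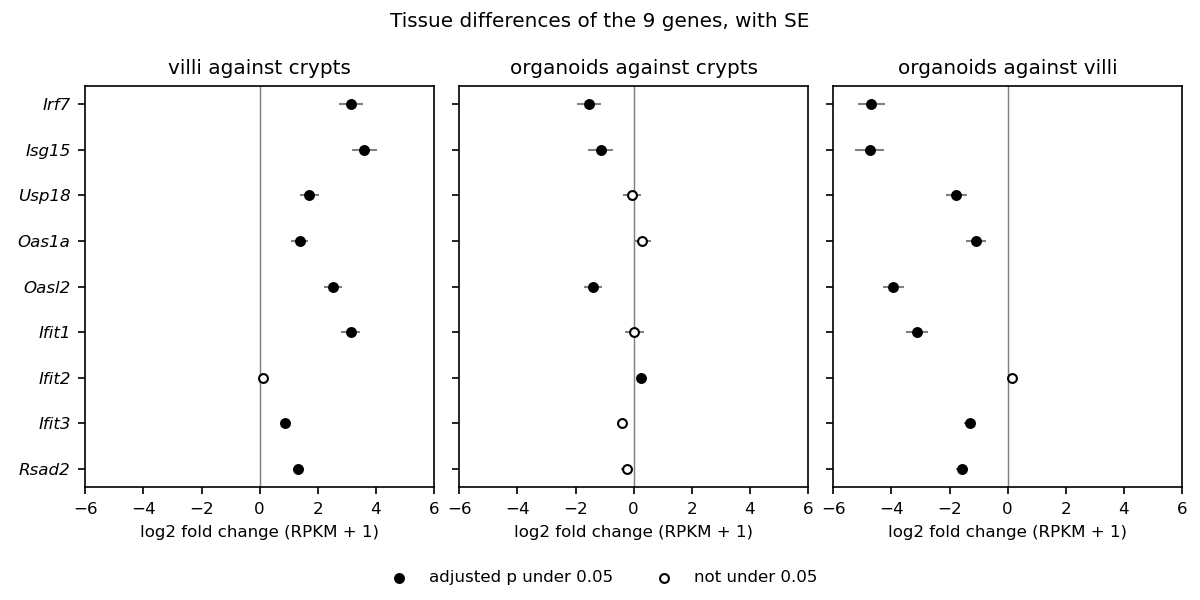
Log2 differences of the 9 genes on the log2(RPKM + 1) scale with SE bars, from the limma fit over 12 libraries, for villi against crypts, organoids against crypts and organoids against villi. Filled points have an adjusted p under 0.05. Isg15 and Irf7 lie furthest from 0 on both sides, at 3.60 and 3.15 in villi against crypts, and Ifit2 lies within 0.27 of 0 in all 3 panels.

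The order of the genes differed between tissues. In organoids the mean levels ran Irf7 4.23 ± 1.01, Oas1a 3.90 ± 1.29, Isg15 1.28 ± 0.83, Oasl2 1.07 ± 0.52, Ifit1 0.537 ± 0.042, Usp18 0.457 ± 0.119, Ifit2 0.369 ± 0.094, Ifit3 0.167 ± 0.133 and Rsad2 0.0505 ± 0.0643 RPKM (SD, n = 3). In villi the order was Irf7 133 ± 18, Isg15 67.8 ± 49.5, Oasl2 30.2 ± 5.9, Ifit1 13.4 ± 7.0, Oas1a 9.38 ± 2.67, Usp18 4.83 ± 4.14, Rsad2 2.23 ± 1.13, Ifit3 1.90 ± 0.67 and Ifit2 0.233 ± 0.024 RPKM (SD, n = 3). In crypts it was Irf7 16.3 ± 9.8, Oasl2 4.64 ± 2.09, Isg15 4.32 ± 2.54, Oas1a 3.20 ± 1.83, Ifit1 0.623 ± 0.710, Ifit3 0.566 ± 0.336, Usp18 0.547 ± 0.367, Rsad2 0.251 ± 0.182 and Ifit2 0.136 ± 0.067 RPKM (SD, n = 6). Most neighbours overlap in their ranges. In villi only the steps between Oasl2 and Ifit1 and between Ifit3 and Ifit2 were free of overlap, and Irf7 and Oas1a, the leaders in organoids, overlapped there.

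By origin, some genes differed widely between the villus libraries. The ratio of duodenal to ileal villi was 5.83 for Usp18, 3.53 for Isg15, 2.70 for Ifit1, 2.12 for Ifit3 and 2.03 for Rsad2. It was 1.38 for Oasl2, 1.11 for Ifit2, 1.03 for Irf7 and 0.962 for Oas1a. These ratios are not given over all genes, so no result about the set is read from them. In the same villi the sum of Cd3d, Cd3e and Cd3g, the CD3 chains of the T cell receptor complex, was 47.9, 29.4 and 15.2 RPKM in duodenum, jejunum and ileum, and that of the enterocyte markers 94789, 46641 and 36777. Stroma and vessel markers ran the other way, at 15.4, 27.0 and 43.7 RPKM. The part of any of these in the spread was not tested, and each origin is 1 villus library. In organoids the ileum-duodenum difference ranged from -0.75 (Isg15) to 0.39 (Oasl2) on the log2 scale.

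Tests between origins called none of the 9. Over all tissues, ileum against duodenum gave 0 of 9 in limma (0 at an unadjusted p under 0.05) and 0 of 9 with limma-voom on read numbers (3 at an unadjusted p under 0.05, Ifit1, Isg15 and Usp18, all lower in the ileum). Over all genes 0.676% passed, 79 genes, or 303 with the crypt replicate number as a block. Jejunum against duodenum and ileum against jejunum also gave 0 of 9, with 1 gene each, Oas1a, at an unadjusted p under 0.05, and limma-voom gave the same counts in both. Over all genes 0% and 0.0428% passed there, 0 and 5 genes, or 13 and 31 with the block. Within crypts 0 of the 8 genes tested (all but Ifit2) passed in any pair of origins in limma or limma-voom, and 0 at an unadjusted p under 0.05, with SE between 0.22 and 0.72 on the log2 scale. The share of all genes was 0.036% for ileum against duodenum, 0% for jejunum against duodenum and 0.027% for ileum against jejunum, or 37, 3 and 10 genes with the block against 4, 0 and 3 without it. Irf7 differed by 0.87 ± 0.72 between ileal and duodenal crypts without the block and by 0.87 ± 0.27 with it (log2, SE, limma adjusted p = 0.99999 and 0.39). It was higher in the ileum in both crypt replicates, at 10.4 RPKM against 5.60 in the duodenum in replicate 1 and 31.9 against 15.9 in replicate 2. With the block Irf7 reached an unadjusted p of 0.017 there, and over all tissues Irf7 and Isg15 reached 0.033 and 0.037, while the adjusted limma p of each member tested stayed above 0.05.

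Whether the ileum-duodenum difference in villi or organoids departed from that in crypts was tested as a difference of differences. The largest of these, for Usp18, was -2.005 ± 0.620 on the log2 scale (SE, limma adjusted p = 0.99999), and that of Rsad2 was -0.96 ± 0.38 (limma adjusted p = 0.99999). The adjusted limma and limma-voom fits called 0 of the 9 for villi or organoids, and 2 and 0 had an unadjusted p under 0.05 in limma, 0 and 1 in limma-voom. Of all 11690 genes 0% passed, with 294 and 182 at an unadjusted p under 0.05. That fit takes the spread of crypt pairs to hold also for the lone villus and organoid libraries.

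**Figure D3:**
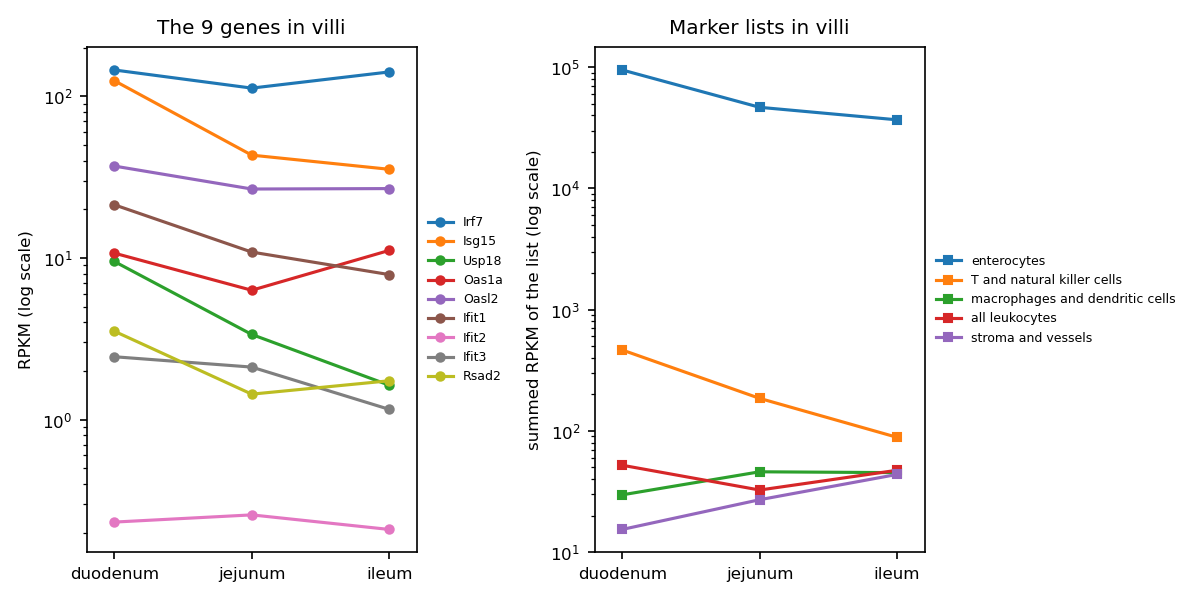
Left, RPKM of the 9 genes in duodenal, jejunal and ileal villi. Right, summed RPKM of marker lists in the same libraries. Both vertical axes are logarithmic and each point is 1 library. Usp18 is at 9.50, 3.36 and 1.63 RPKM in duodenum, jejunum and ileum, Irf7 lies between 112 and 145, and the T and natural killer cell list is at 464, 185 and 88.4.

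The numbered crypt libraries differed in these genes as well. Of the 9 genes, 8, 7 and 9 were higher in replicate 2 than in replicate 1 in duodenum, jejunum and ileum, against 74.7%, 49.8% and 58.4% of all 11124 genes tested in crypts. Irf7 was 1.36, 1.13 and 1.53 higher and Isg15 1.09, 1.34 and 1.25 higher in replicate 2 (log2). Ifit3 in the duodenum (-0.38) and Oas1a in the jejunum (-0.59) were lower, as was Ifit2 in the jejunum, where both libraries had 5 reads of it. The enterocyte list had a median difference of 3.82, 3.50 and 3.26 and the Paneth list of -1.95, -1.02 and -1.77. The leukocyte list had -0.46, 0.19 and -0.28, and the T and natural killer cell list 0.03, 0.14 and 0.04. Summed levels of the latter were 2.53, 8.42 and 3.75 RPKM in replicate 2 against 2.13, 2.20 and 1.52 in replicate 1. In each crypt library 2 to 6 of its 10 genes were at 0, and a pseudocount of 1 holds its median near 0 at such levels. No cause of the difference between the numbered libraries was tested. The labels give no batch, and the numbers also separate libraries by the share of reads in genes, 65.6, 60.2 and 67.6% in replicate 2 against 44.3, 48.6 and 52.3% in replicate 1.

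**Figure D4:**
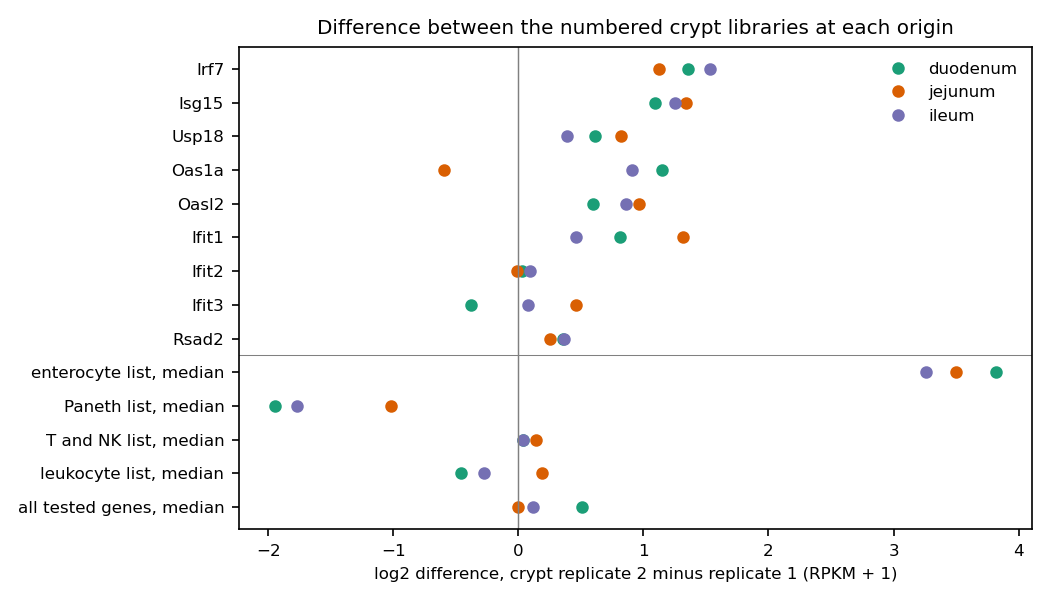
Difference between crypt replicate 2 and replicate 1 at each origin on the log2(RPKM + 1) scale, for the 9 genes (above the line) and for the medians of marker lists and of all tested genes (below). Irf7 and Isg15 lie between 1.09 and 1.53 at all origins and the enterocyte list between 3.26 and 3.82. The T and natural killer cell list lies near 0. In each crypt library 2 to 6 of its 10 genes were at 0, which holds down its median on this scale.

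Upstream of these genes, interferon transcripts themselves were almost undetected. The 9 ligand genes examined gave 33 reads in all 12 libraries together. Ifnk, the interferon kappa known from skin, had 31 of them, 25 in the jejunal organoids, and Ifna1 and Ifne1 had 1 read each. Ifnb1, Ifna2, Ifna4, Il28a and Il28b (the interferon lambda genes Ifnl2 and Ifnl3) and Ifng had 0 reads in every library. A count of 0 allows up to 3 reads, which for the 9 ligands is 0.134 to 0.999 RPKM depending on gene and library, so low expression, or expression in a few cells, was not detectable.

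Of 6 receptor genes 4 were higher in villi than in crypts and none was lower, against 20.5% higher and 32.8% lower among all genes tested. Il28ra, the interferon lambda receptor chain now called Ifnlr1, averaged 7.09 ± 1.46 RPKM in villi and 2.34 ± 1.49 in crypts (SD), a log2 difference of 1.37 (limma adjusted p = 0.0030). Its partner chain Il10rb was 1.37 higher (adjusted p = 0.011), Ifngr2 1.80 higher (adjusted p = 0.0012) and Ifnar2 1.03 higher (adjusted p = 0.018, all limma). In organoids Ifnar2 was the 1 receptor gene of 6 that passed against crypts, 1.73 higher (limma adjusted p = 0.00099), where 47.7% of all genes passed, while Il28ra had 1.73 ± 0.55 RPKM in organoids and was 1.57 lower than in villi (limma adjusted p = 0.0023).

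Among 6 signalling genes 4 were higher in villi than in crypts and none was lower (20.5% and 32.8% of all genes). Jak2 was 1.25, Stat2 0.64 and Tyk2 0.56 higher (log2, limma adjusted p = 0.010, 0.017 and 0.048). None of the 6 passed against crypt replicate 2 alone, 4 did against replicate 1 alone, and 1 was higher with levels scaled to the reads in annotated genes. Stat2 and Tyk2, 2 of the 6, were lower in organoids than in crypts, by 1.44 and 0.95 (log2, limma adjusted p = 0.00014 and 0.0035), against 24.2% of all genes. Stat2 had 0.851 ± 0.306 RPKM in organoids and 4.03 ± 0.71 in crypts (SD). Against villi 5 of the 6 were lower in organoids, as were 25.8% of all genes.

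Of the other factors of the IRF family, 3 of 6 were higher and 1 lower in villi than in crypts, and 4 of 6 were lower in organoids than in crypts. The shares of all genes were 20.5% higher and 32.8% lower in villi, and 24.2% lower in organoids. Scaled to the reads in annotated genes, 2 were higher and 2 lower in villi than in crypts. Irf1, which drives interferon gamma targets, averaged 9.19 ± 2.90 RPKM in organoids, 84.5 ± 12.8 in villi and 39.5 ± 6.5 in crypts (SD). It was 1.08 higher in villi than in crypts and 2.02 lower in organoids than in crypts (log2, limma adjusted p = 0.0037 and 7.7e-05). Irf8, known from myeloid cells, had 6.87 ± 1.91 RPKM in organoids, 36.1 ± 6.1 in villi and 40.2 ± 6.8 in crypts, and was 2.40 lower in organoids than in crypts (limma adjusted p = 1.5e-05). Irf3, the factor that starts interferon production after virus sensing, was 0.56 lower in villi and 0.77 lower in organoids than in crypts (limma adjusted p = 0.041 and 0.011).

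Of 10 sensors and adaptors tested, 4 were higher and 1 lower in villi than in crypts, against 20.5% and 32.8% of all genes. Zbp1, a sensor of Z-form nucleic acid, was 2.09 higher, Ticam1, the TLR3 adaptor, 1.72 higher and Ifih1 (MDA5) 1.20 higher (log2, limma adjusted p = 0.00014, 0.0032 and 0.0043). E330016A19Rik, now called Cgas, the cytosolic DNA sensor, was 2.03 lower in villi (limma adjusted p = 3.9e-06). In organoids against crypts 2 were higher and 3 lower, near the shares of all genes (23.4% and 24.2%), so these counts are not a result about the list. Aim2, another DNA sensor, had 7.55 ± 4.11 RPKM in organoids and 0.496 ± 0.560 in crypts (SD), a log2 difference of 2.44 (limma adjusted p = 1.2e-05), and Tlr3 was 1.02 higher (limma adjusted p = 0.021).

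Of 6 genes known as brakes on the response, 3 were higher and 1 lower in villi than in crypts, and 2 were higher and 2 lower in organoids than in crypts. Among all genes 20.5% were higher and 32.8% lower in villi, and 23.4% higher and 24.2% lower in organoids, and nothing is read from counts this small. Socs3 was 1.11 higher in villi and 1.32 lower in organoids than in crypts (log2, limma adjusted p = 0.0018 and 0.00073). Ptpn2, a protein tyrosine phosphatase, went the other way, 1.03 lower in villi and 1.57 higher in organoids (limma adjusted p = 0.022 and 0.0025). Both enzymes that attach ISG15 and were measured were higher in villi. Ube2l6, the conjugating enzyme, had 24.6 ± 7.7 RPKM in organoids, 179 ± 68 in villi and 11.8 ± 8.5 in crypts (SD), and was 4.04 higher in villi than in crypts (limma adjusted p = 4.5e-05). Ube1l (now Uba7), the activating enzyme, was 1.35 higher in villi and 1.85 lower in organoids than in crypts (limma adjusted p = 0.0014 and 0.00023).

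A further 45 interferon-stimulated genes were tested, of which 41 also met the filter in crypts. In villi against crypts 24 were higher and 7 lower, with a median log2 difference of 0.74, against 20.5% higher, 32.8% lower and a median of -0.20 over all genes. In organoids against crypts 7 were higher and 15 lower, with a median of -0.13, where 23.4% of all genes were higher and 24.2% lower. Against crypt replicate 1 alone 11 were higher and 9 lower. Oas3 averaged 0.0269 ± 0.0164 RPKM in organoids, 8.77 ± 2.10 in villi and 0.508 ± 0.434 in crypts (SD), a log2 difference of 2.72 between villi and crypts (limma adjusted p = 4.1e-06). Parp12, an ADP-ribosyltransferase, was 3.08 higher in villi than in crypts (limma adjusted p = 1.5e-05). The membrane antiviral genes Ifitm2 and Ifitm3 ran opposite to the 9 genes. Ifitm3 had 359 ± 250 RPKM in organoids, 6.60 ± 3.06 in villi and 95.4 ± 61.3 in crypts (SD), so it was 3.47 lower in villi and 1.96 higher in organoids than in crypts (limma adjusted p = 5.9e-06 and 0.00038). Ifitm2 fell by 3.66 in villi against crypts (limma adjusted p = 1.9e-05). In organoids Daxx fell by 1.58, Adar, an RNA-editing enzyme, by 1.48 and Pml, the scaffold of nuclear bodies, by 1.43 against crypts (log2, limma adjusted p = 8.7e-05, 0.00019 and 0.00050).

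Of 17 interferon gamma targets tested, 12 were higher and 1 lower in villi than in crypts, and 1 was higher and 6 lower in organoids than in crypts. For all genes these shares were 20.5% and 32.8% in villi, and 23.4% and 24.2% in organoids. Indo (now Ido1), a tryptophan-degrading enzyme, averaged 0.161 ± 0.171 RPKM in organoids, 12.9 ± 4.9 in villi and 0.503 ± 0.484 in crypts (SD), 3.20 higher in villi than in crypts on the log2 scale (limma adjusted p = 5.3e-06). The peptide transporter genes Tap2 and Tap1 were 2.57 and 2.29 higher in villi (limma adjusted p = 8.0e-06 and 1.9e-05). The immunoproteasome gene Psmb8 had 2.24 ± 0.85 RPKM in organoids and 23.1 ± 6.5 in crypts (SD), 2.89 lower in organoids (limma adjusted p = 2.7e-05). Cd274 (PD-L1) was the one that was higher in organoids, by 0.57 (limma adjusted p = 0.0040), at 0.630 ± 0.281 RPKM against 0.0863 ± 0.0632 in crypts. Cd274 did not meet the filter for testing in crypts. Its entry into the fit leaned on organoids and villi, where it was higher, so no support is drawn from its calls. The summed T and natural killer cell markers, 88.4 to 464 RPKM in villi against 1.52 to 8.42 in crypts, moved with this list too, and their part was not tested.

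**Figure D5:**
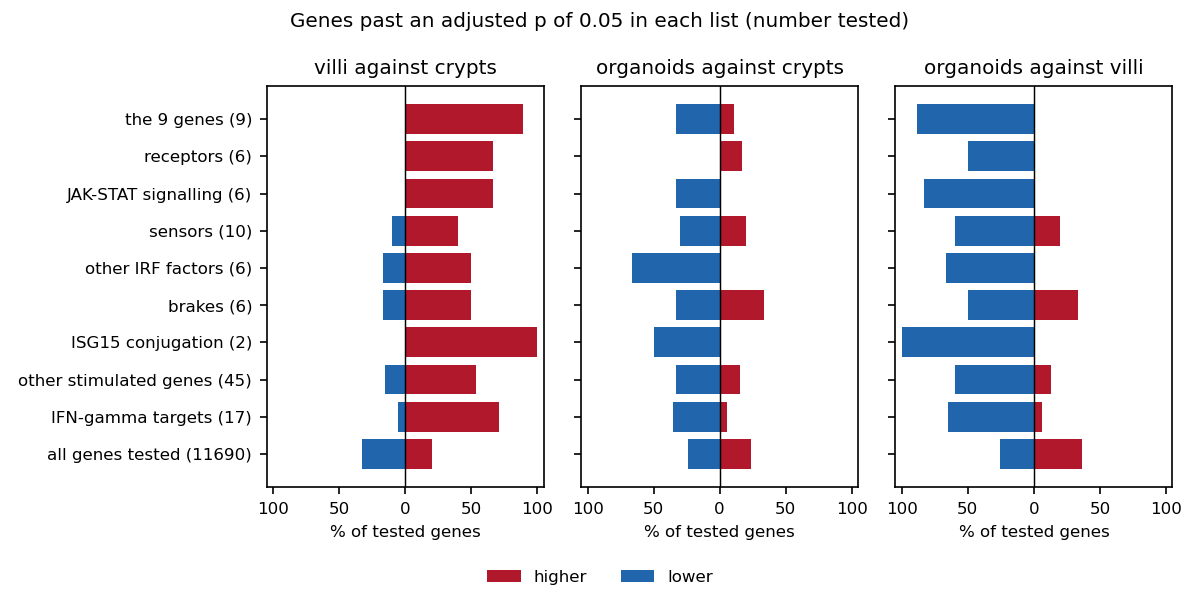
Share of the tested genes in each list that was higher (right, red) or lower (left, blue) at a limma adjusted p under 0.05 in the 3 tissue comparisons, with the number tested in brackets and all 11690 tested genes at the bottom. In villi against crypts 8 of the 9 genes, 24 of 45 other stimulated genes and 12 of 17 interferon gamma targets were higher, against 20.5% of all genes.

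Across the 12 libraries 8 of the 9 genes followed their common mean, with Pearson r from 0.75 (Oas1a) to 0.99 (Isg15), and Ifit2 did not (r = -0.02). These are descriptions over libraries that share tissues, and each gene is part of the mean. The genes most like this mean among all those tested were Ghdc (r = 0.991), Oas3 (0.990), Blcap (0.984), Max (0.982), Rac2 (0.982), 2010305C02Rik (now Tlcd2, 0.982), Rom1 (0.981), Ormdl3 (0.980), Oasl1 (0.979) and Paqr7 (0.978). Oas3 and Oasl1 were on the list of other stimulated genes. Rac2, a GTPase of blood cells, had 0.169 RPKM in organoids, 11.9 in villi and 0.743 in crypts, while Blcap had 9.48, 28.2 and 11.9 RPKM in the same order. Of the 9 of these 10 genes with a promoter entry, 1 held the response-element core.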

How the data were processed

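RNA of 12 libraries (organoids and villi, 1 per origin; crypts, 2 per origin) was selected for poly(A) and sequenced on a SOLiD 4 in reads of 50 bases, as the labels' protocols state. The submitters' processing notes name BWA and the build mm9; no source used here gives versions, gene models, the counting rule or whether strand was used. The deposited values are RPKM, computed by the authors per transcript, per the file headers. At least 99.9535% of values in each library were whole reads within 0.02 of a read, which gave the depths.

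Each of 19012 symbols is represented by its transcript of greatest exon length. A gene was tested if 3 or more libraries (2 of the 6 for crypts) held a level worth 10 reads at median depth, and 15 reads were seen in all, which left 11690 and 11124 genes. All 9 genes passed in the 12-library fit and 8 in the crypt fit. limma 3.58.1 in R 4.3.3, with a mean-variance trend, was run on log2(RPKM + 1), two-sided, with Benjamini-Hochberg adjustment over all genes tested and a threshold of 0.05. Differences on this scale understate those of low genes. Tissues were compared in an additive fit of tissue and origin, where the 3 origins serve as replicates; the script was tested on simulated data. A planned quasi-likelihood count test was not used on RPKM and limma-voom on the recovered reads took its place, an alternative chosen after seeing the data, as was reporting the sum of the CD3 genes. The equal numbers of the crypt libraries deviated together (r = 0.42, 0.51 and 0.79 between origins over 11124 genes). The main fits leave this pairing out, and the block by crypt replicate number was run as an alternative.

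The 9 genes and the pathway and marker lists were chosen with earlier results of these data known. Named genes are the 9, up to 4 of each list past the threshold with the smallest p per tissue comparison, the 10 genes most correlated with the mean of the 9, and cell type markers. Of the listed pathway genes 7 had no row. Promoters are RefSeq's on GRCm38.p6, matched by symbol for 8 of the 9 genes.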

Additional observations from a re-analysis of the deposited data

How the results depend on the processing

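In villi against crypts and organoids against villi 8 genes passed under every alternative run, with 8 to 8 when leaving out 1 library. In organoids against crypts 4 passed, 2 to 4 when leaving out 1 library and 2 with only crypt libraries of replicate 1. With the replicate block 8, 4 and 8 passed, and no call among the 9 genes changed. In organoids against crypts the log2 difference of Ifit1, 0.019 and not called, turned to -0.039 when scaled to reads in annotated genes, -0.41 against crypt replicate 2 alone, and ran from -0.15 to 0.23 without 1 library. That of Usp18, -0.056 and not called, turned to 0.25 against crypt replicate 1 alone and ran from -0.25 to 0.19 without 1 library. Ifit3 passed there with a pseudocount of 0.25 (limma adjusted p = 0.044), scaled to reads in genes (0.047), by limma-voom (0.035) and without the ileal organoids (0.024), and Rsad2 by limma-voom (0.043). Without the ileal organoids 3574 of all genes passed in that comparison, against 5572. Tests by origin called 0 of the 9 under every alternative. Over all genes, ileum against duodenum gave 17 calls with no filter, 150 by limma-voom, 153 with crypt replicate 2 alone and at least 35 without 1 library, against 79. With no filter the differences of differences gave 362 calls for organoids and 497 for villi against 0, and the cause was not tested. The edgeR test planned for recovered reads was not run on RPKM. Depth limits Ifit2 in all tissues, at 1 to 25 reads a library, and Ifit3, Rsad2 and Usp18 outside villi, at 0 to 20 reads. It also limits Isg15 in organoids, at 9 to 17 reads, and Ifit1 in crypts, at 1 to 47 reads.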
